A study of Rattus norvegicus with 15 samples.

Results

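Freshly isolated neonatal rat cardiomyocytes (nCM) were compared with cultured rat cardiac stem cells (CSC) by total RNA sequencing, gene by gene, as nCM minus CSC. The comparison used 6 of the 15 libraries of the study, 3 of each group, chosen by their labels. Both groups came from Wistar rats. The nCM libraries were made from hearts of postnatal day 1 to 2, and the 3 CSC libraries are 3 cultures of 1 clone of undifferentiated cells, so they carry the traits of that clone. The labels give no age for the CSC and do not say how many animals or litters stand behind each nCM library, so p-values measure the spread between libraries. That spread was estimated over 12 libraries fitted together, including the beating colonies and adult cardiomyocytes described next. The study also sequenced beating colonies grown from CSC, cardiomyocytes of adult hearts at 12 weeks, and 3 further CSC clones with 1 library each. Its title concerns c-kit expression as a mark of adult cardiac stem cells.

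Cardiomyocytes of the newborn heart contract through sarcomeres, in which myosin thick filaments pull on actin thin filaments held by Z-discs when calcium binds the troponin complex. Around birth they are leaving the cell cycle and turning from sugars to fatty acids as fuel. Cells kept growing in culture instead run the machinery of division and make lipids, nucleotides and reducing power for growth.

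Each CSC library held 35.40 M to 48.49 M counts and each nCM library 35.79 M to 43.31 M. Levels are given as CPM, counts brought to a common library total, scaled by the trimmed mean of M values (TMM), and 3 counts correspond to 0.064 to 0.0887 CPM in CSC and to 0.0642 to 0.0794 CPM in nCM. Libraries correlated at r = 0.983 to 0.986 within CSC, 0.988 to 0.993 within nCM and 0.796 to 0.825 between the groups, across genes on the log scale.

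The nCM libraries held the muscle markers of their label, and they also held transcripts of most other cells of a heart. The 7 cardiomyocyte markers (Myh6, Myh7, Actc1, Tnnt2, Actn2, Ryr2 and Nkx2-5) summed to 2233 to 4312 CPM in nCM and to 4.32 to 49.5 CPM in CSC. The 5 endothelial markers summed to 1980.0 to 2402 CPM in nCM against 2.92 to 7.49 in CSC. The 5 macrophage markers reached 231 to 351 against 3.7 to 6.02 CPM, and the 5 fibroblast markers 7439 to 10560 against 2268 to 2948 CPM. All 3 nCM libraries lay above all 3 CSC libraries for each of these lists. In smaller sums, 4 smooth muscle or pericyte markers reached 523 to 580.5 against 235 to 268 CPM, 4 epicardial markers 82.7 to 97 against 20.7 to 48.3, 4 mast cell markers 8.01 to 15.4 against 0.858 to 1.13 and 4 neural or glial markers 9.23 to 13.1 against 4.47 to 5.23. Some CSC sums came mostly from a single marker. In the 3 CSC libraries Col1a1 (fibroblast) was at 2435, 2729 and 2136 CPM, and Cspg4 (pericyte) at 222, 232 and 251. Msln (epicardial) was at 38.2, 46.5 and 19.3 CPM. Cspg4 was lower in nCM, and Col1a1 and Msln overlapped between the groups. These sums therefore do not show how the other markers of those lists differed. The 3 adipocyte markers stayed low in both groups, at 1.05 to 1.89 and 0.533 to 0.957 CPM. In bulk libraries such as these, fewer cells of a type and less RNA per cell cannot be told apart, and the part of the other cell types in the results that follow was not tested.

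Globin transcripts were the most abundant of these. The 4 erythroid markers found (Hba2, Hbb, Alas2 and Ahsp) summed to 23380 to 35340 CPM in nCM and 22.2 to 162 in CSC. The 5 globin genes of the table took 8.12%, 7.85% and 6.03% of all counts in the 3 nCM libraries. In CSC they had 6 counts in replicate 1, 8570 in replicate 2 and 7 in replicate 3. Thus CSC replicate 2 held 0.0177% globin, and many genes of the nCM side had their highest CSC value in that library. CSC replicate 1 in turn had the highest CSC levels of several muscle genes, Myh6 among them. Fold changes of such genes are therefore also given without the library concerned.

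**Figure D1:**
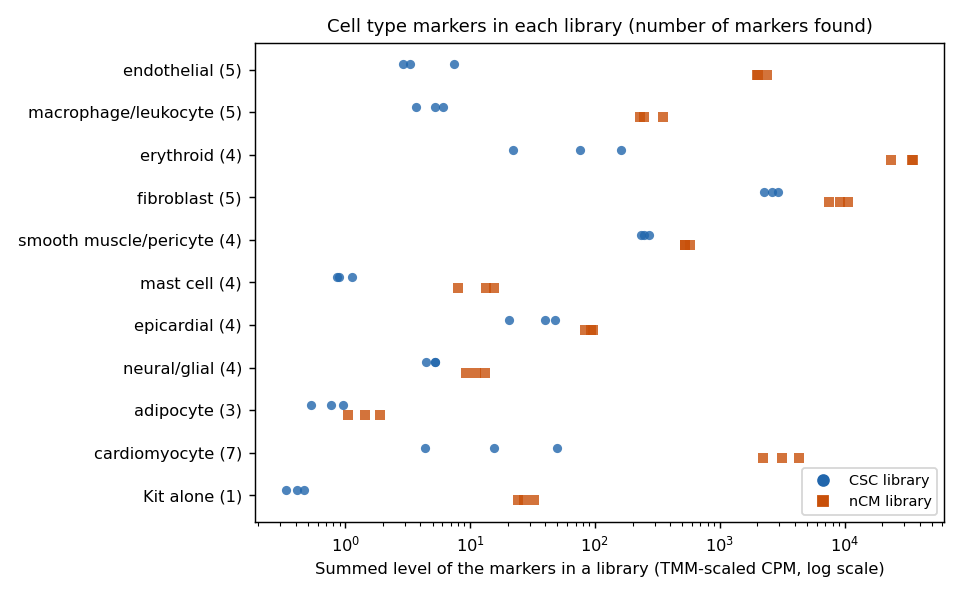
Summed TMM-scaled CPM (horizontal log axis) of each cell type's markers in each of the 3 CSC libraries (circles) and 3 nCM libraries (squares), with the number of markers found in brackets. The cardiomyocyte, endothelial, macrophage, erythroid and Kit levels of all nCM libraries lie far above those of all CSC libraries, while the adipocyte levels lie close together, at 0.533 to 0.957 CPM in CSC and 1.05 to 1.89 CPM in nCM.

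Most of the transcriptome differed between the groups. The nCM were isolated fresh and the CSC were cultured, so culture and cell type cannot be told apart for any gene below. Of 17242 genes tested, 12411 (72.0%) were called by edgeR's quasi-likelihood test at a Benjamini-Hochberg adjusted p of 0.05 or less, 6307 higher in nCM (36.6%) and 6104 lower (35.4%). Large differences lay mainly on the nCM side. A call with at least a 2-fold difference was reached by 44.8% of genes, 4788 higher in nCM (27.8%) and 2942 lower (17.1%). One with at least a 32-fold difference was reached by 5.24%, 831 higher (4.82%) and 73 lower (0.423%). The 6 libraries did not overlap between groups for 12746 genes (73.9%). The median log2 fold change of all genes tested was 0.089 under TMM and lay between -0.0611 and 0.256 under the other scalings tried, so small differences below are relative to that centre.

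Of the 12 largest rises 5 were globin entries, and the 12 largest falls included the matrix proteases Mmp3 and Mmp10 and the keratin Krt8. Also among the rises were Cd34, a surface sialomucin of endothelial and progenitor cells, Dcn, the collagen-binding proteoglycan decorin, Islr, Nrep, Igf2 and Fxyd6. Cd34 was at 0.0479, 0.341 and 0.118 CPM in the 3 CSC libraries and 153, 211 and 207 in nCM. The groups were far apart, and replicate 2 was highest among CSC. Its log2 fold change was 10.03 ± 0.44 (SE), with an adjusted p of 7.68e-10, and 11.16 without CSC replicate 2. Islr was even across all CSC libraries, at 0.0718, 0.064 and 0.0592 CPM, and rose to 60.3, 65.9 and 63.6 in nCM (log2 fold change 9.85 ± 0.28, adjusted p = 3.09e-12). The CSC levels of Islr are at or below the level of 3 counts, where the SE can be too small. Nrep, a small protein of growing and regenerating tissue, rose by 9.76 ± 0.42 log2 units (11.55 without CSC replicate 2). Fxyd6, a regulator of the sodium pump, had 0, 1 and 0 counts in CSC and 23.5, 26.1 and 22.9 CPM in nCM, which allows no stable fold. The globin Hba2 was at 0.0479, 47.7 and 0.0887 CPM in CSC and 18034, 18255 and 11891 in nCM. Its log2 fold change of 9.97 ± 2.16 (adjusted p = 0.0023) became 17.82 without CSC replicate 2. Hbb had no count in CSC replicates 1 and 3, against whose floor of 3 counts per library the nCM mean was at least 17.5 log2 units higher. The table lists Hba2 beside Hba-a2 and Hbb beside HBB and Hbb-b1. These copies are nearly identical, so the split of reads between them is uncertain.

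On the other side, Mmp3, the matrix protease stromelysin-1, fell the most. It was at 387, 157 and 199 CPM in CSC and at 0.0856, 0.265 and 0.26 in nCM, close to the level of 3 counts. All CSC values lay far above all nCM values, with a log2 fold change of -10.27 ± 0.59 and an adjusted p of 3.36e-08. Spp1, the secreted phosphoprotein osteopontin, was at 6736, 10155 and 7557 CPM in CSC, where it was among the 8 most abundant genes, and at 13.3, 19.4 and 38.6 CPM in nCM (log2 fold change -8.42 ± 0.47, adjusted p = 2.35e-09). The groups did not come near each other. Fgf7, keratinocyte growth factor, was even in CSC at 46.6, 40 and 60.6 CPM and was at 0.15, 0.37 and 0.142 CPM in nCM (log2 fold change -7.82 ± 0.32). Sult1b1, a sulfotransferase, fell (log2 fold change -8.50 ± 0.51), Adh7, an alcohol dehydrogenase, did too (log2 fold change -7.26 ± 0.49), and the uncharacterised 2610528A11Rik (log2 fold change -8.55 ± 0.51). Falls of 2 others rested on 1 CSC library each. MGC114427 was at 1.53, 524 and 1.21 CPM in CSC and 0.321, 0.37 and 0.473 in nCM, and its log2 fold change of -8.81 ± 2.46 (adjusted p = 0.0101) shrank to -1.82 without CSC replicate 2. It was not called with the 6 libraries fitted alone (adjusted p = 0.0646). Gsta2, a glutathione transferase, was at 2.03, 0.277 and 94.8 CPM in CSC and 0.257, 0.106 and 0.189 in nCM. Its log2 fold change of -7.40 ± 2.03 (adjusted p = 0.00881) became -2.58 without CSC replicate 3, and the 6 libraries alone gave an adjusted p of 0.0501.

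**Figure D2:**
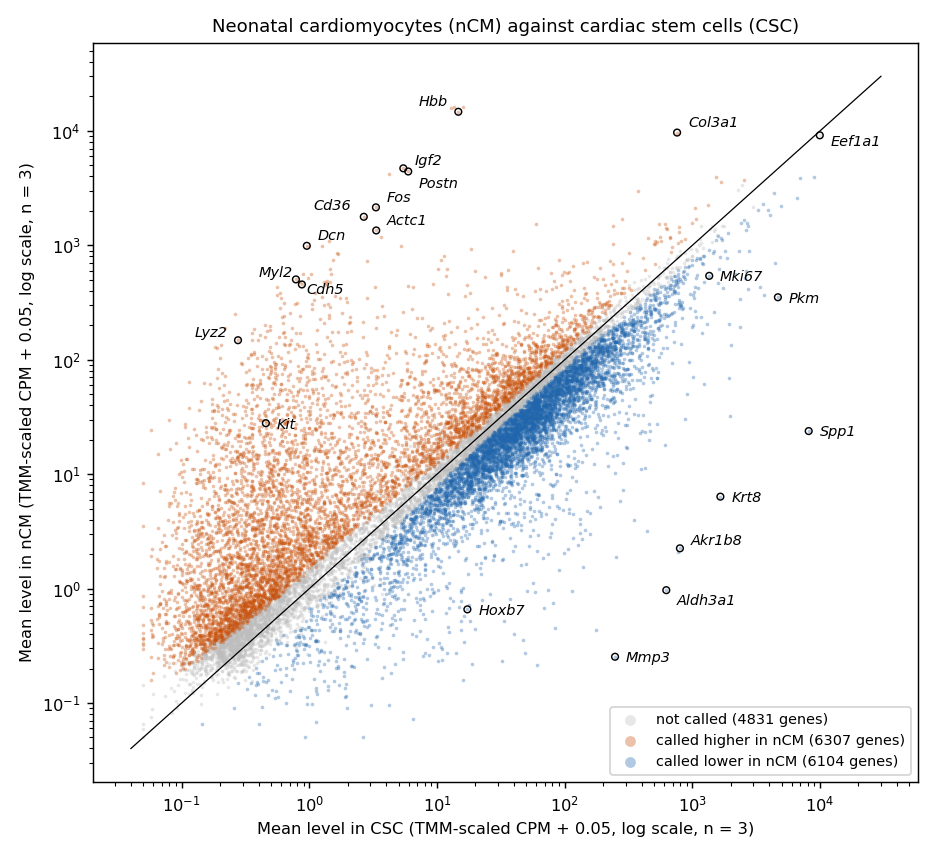
Mean level of each of the 17242 genes tested in CSC (horizontal) and in nCM (vertical), both as TMM-scaled CPM plus 0.05 on log axes, n = 3 libraries each, with genes called higher in nCM, called lower and not called in 3 colours and the line of equal levels. Genes far above the line, such as Igf2, Postn, Cd36 and the globin Hbb, outnumber those far below it, such as Mmp3, Spp1, Krt8 and Aldh3a1.

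Contractile genes were nearly all higher in nCM. All 11 tested genes of the myosin thick filament were called higher in nCM, with a median log2 fold change of 6.71, and so were all 12 of the thin filament and troponins, with a median of 7.34. Of 17 entries for the Z-disc and M-band, 14 were called higher and 1 lower, with a median of 3.72. Actc1, cardiac alpha-actin of the thin filament, was at 5.02, 4.54 and 0.296 CPM in CSC and at 1883, 1290.3 and 871 in nCM. No nCM library came near any CSC library, and replicate 3 was the lowest of the nCM libraries, as for every filament gene whose values are given here except Myl7. The log2 fold change (± SE, here and below) was 8.66 ± 0.80, with an adjusted p of 1.4e-06. Acta1, the skeletal alpha-actin that the perinatal rodent heart also makes, was at 1.2, 1.45 and 0.976 CPM in CSC and 466, 383 and 207 in nCM (log2 fold change 8.17 ± 0.46, adjusted p = 7.79e-09). Tnni1, a troponin I made in slow muscle and in the heart before birth, was at 0.144, 0.875 and 0.0592 CPM in CSC and 203, 176 and 110.3 in nCM. It rose by 8.70 ± 0.59 log2 units, and by 10.55 without CSC replicate 2, its highest CSC library. Its adult cardiac counterpart Tnni3 rose by 7.72 ± 0.56 log2 units (8.63 without CSC replicate 1), and Tnnc1, the calcium-binding troponin C, by 8.21 ± 0.50 log2 units (8.91 without CSC replicate 2). Tnnt2, the tropomyosin-binding cardiac troponin T, rose by 6.96 ± 0.45 log2 units.

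The heavy chains of the thick filament showed the uneven CSC background. Myh6, the fast alpha-myosin heavy chain, was at 28.8, 2.97 and 0.296 CPM in CSC and at 1019, 745 and 483 in nCM. CSC replicate 1 stood well above the other two but below every nCM library. The log2 fold change was 6.13 ± 1.22 (adjusted p = 0.00108) and became 8.78 without that library. Myh7, the slow beta-heavy chain of the fetal heart, was at 2.49, 1.62 and 0.148 CPM in CSC and 665, 563 and 459.5 in nCM (log2 fold change 8.59 ± 0.84, and 9.21 without CSC replicate 1). Myl2, the ventricular regulatory light chain, was at 0.742, 1.73 and 0 CPM in CSC and 604, 473 and 287 in nCM, and Myl7, its atrial counterpart, at 0.287, 0.427 and 0.237 and 159, 83.8 and 111. Both were called, at log2 fold changes of 9.02 ± 0.73 (10.14 without CSC replicate 2) and 8.49 ± 0.38. At the Z-disc, Myoz2, a calcineurin-binding protein of striated muscle, rose by 8.13 ± 0.28 log2 units, Csrp3, a stretch-sensing LIM protein, by 7.71 ± 0.18 log2 units, Actn2, the actin crosslinker, by 6.16 ± 0.22 log2 units, and Cryab, a small heat shock protein that guards desmin, by 5.32 ± 0.30 log2 units. Fhl2, a LIM protein, was not called, at 75.4, 89.9 and 96.3 CPM in CSC and 98.9, 86.4 and 67.2 in nCM.

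Serum response factor binds the CArG box, and a box of this kind stood in the promoter windows of 3 of 8 thin filament genes with a window in the reference table (37.5%), against 1.29% of the 10899 windows of tested genes. Other muscle lists had few or none. A box stood in 1 of 9 windows of the myosin thick filament, 0 of 10 of the Z-disc and M-band and 0 of 8 of smooth muscle and pericyte genes. Over all genes called higher in nCM the share was 1.5%. Windows ran from 250 bases before to 50 after the RefSeq start (build GRCr8), and both strands were searched. The upstream 250 bases of Acta1 are shown because its actin is a textbook target of that factor. The stretch is chr19:68784195-68784444 on the minus strand, read 5' to 3', with the box in capitals.
Acta1: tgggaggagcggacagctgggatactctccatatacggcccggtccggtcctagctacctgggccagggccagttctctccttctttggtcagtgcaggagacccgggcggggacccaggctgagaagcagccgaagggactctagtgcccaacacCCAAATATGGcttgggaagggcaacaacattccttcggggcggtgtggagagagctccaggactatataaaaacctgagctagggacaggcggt
The box is a match of letters and was not tested as a site.

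Genes of calcium cycling, membrane excitation and hormone signalling also differed, though with more exceptions. Of 17 calcium handling genes, 10 were called higher and 4 lower (median log2 fold change 1.15). Pln, the phospholamban that restrains the calcium pump of the sarcoplasmic reticulum, was at 0.909, 1 and 0.828 CPM in CSC and 139, 116 and 62.1 in nCM (log2 fold change 6.84 ± 0.30, adjusted p = 1.34e-10). The CSC libraries were alike, and the lowest nCM library was far above them. Casq2, the calcium store protein calsequestrin, rose by 4.81 ± 0.24 log2 units, and Cacna1c, the L-type calcium channel pore, by 4.41 ± 0.26 log2 units. Ryr2, the calcium release channel, was at 6.94, 1 and 1.04 CPM in CSC and 97.1, 68.2 and 89.1 in nCM, so that its log2 fold change of 4.82 ± 0.63 became 6.38 without CSC replicate 1.

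Of 23 ion channel and pump entries, 19 were called higher in nCM and 2 lower (median 3.35). The leading members were Abcc9 and Kcnj8, which together form an ATP-sensitive potassium channel found in pericytes and smooth muscle as well as the heart. Kcnj8 was at 0.335, 0.469 and 0.266 CPM in CSC and 64.4, 63.3 and 59.4 in nCM (log2 fold change 7.41 ± 0.29), and Abcc9 rose by 7.93 ± 0.29 log2 units (8.57 without CSC replicate 1). The pericyte marker Rgs5 rose too, while the pericyte marker Cspg4 fell, as described below. The part of pericytes in the levels of Abcc9 and Kcnj8 was not tested. Kcnj2, the inward rectifier that sets the resting potential, was at 0.263, 0.0853 and 0.0592 CPM in CSC and 8.8, 14.8 and 13.3 in nCM (log2 fold change 6.44 ± 0.33, and 7.31 without CSC replicate 1). Fxyd1, the sodium pump regulator phospholemman, rose by 7.04 ± 0.26 log2 units. The sodium pump subunit Atp1b1 was uneven in CSC, at 11.9, 25.5 and 69.6 CPM, against 39.1, 30.5 and 31 in nCM, and was not called (log2 fold change -0.08). Without CSC replicate 3 its sign turned and it was called higher in nCM, at a log2 fold change of 0.84 (adjusted p = 0.00958). At the intercalated disc and membrane skeleton, 10 of 17 genes were called higher and 4 lower (median 0.748). Jup, the junction protein plakoglobin, rose by 8.17 ± 0.25 log2 units, Cav3, the muscle caveolin, by 7.33 ± 0.27 log2 units, and Dmd, dystrophin, by 5.26 ± 0.41 log2 units (6.41 without CSC replicate 2). Cdh2, N-cadherin, was at 89.2, 72.5 and 22.2 CPM in CSC and 68.6, 73 and 89.6 in nCM and was not called.

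Of 23 cardiac transcription factor genes, 19 were called higher in nCM and 2 lower (median 2.14). Tbx20, a T-box factor of the heart, was at 0.263, 0.704 and 0.237 CPM in CSC and 142, 156 and 172 in nCM, a log2 fold change of 8.53 ± 0.28 (9.26 without CSC replicate 2). Nkx2-5, the homeobox factor of the cardiac lineage, was near the detection limit in CSC, at 0, 0.128 and 0.0592 CPM, and at 4.3, 3.89 and 3.14 in nCM. It was higher in all 3 nCM libraries, with a log2 fold change of 5.79 ± 0.44 and an adjusted p of 3.82e-08 (6.98 without CSC replicate 2). Tbx5, another T-box factor, rose by 5.33 ± 0.22 log2 units, Smyd1, a muscle methyltransferase, by 6.17 ± 0.25 log2 units, and Gata4 by 2.14 ± 0.17 log2 units. Ankrd1, a stretch-responsive nuclear protein, rose by 7.34 ± 0.44 log2 units. Isl1, a marker of the second heart field, was called lower in nCM (log2 fold change -2.14 ± 0.34). The homeodomain protein gene Hopx was not called, at 18.4, 13.5 and 3.25 CPM in CSC and 21.2, 19.7 and 14.5 in nCM (adjusted p = 0.0481 without CSC replicate 1). The count of 2 lower was 3 with RLE scaling, the authors' factors and DESeq2. It was 1 with total count scaling, the 6 libraries alone and the 1 CPM filter, and without CSC replicate 2 or nCM replicate 1.

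Of 10 genes for natriuretic peptides and cardiac hormones, 9 were called higher and 0 lower. Nppa, atrial natriuretic peptide, was at 0.598, 0.576 and 0.207 CPM in CSC and 61.3, 32.3 and 45.2 in nCM (log2 fold change 6.59 ± 0.45), Corin, the protease that activates it, rose by 5.59 ± 0.31 log2 units, and Npr1, its receptor, by 6.63 ± 0.24 log2 units. Edn1, the vasoconstrictor endothelin made mainly by endothelium, rose by 7.85 ± 0.34 log2 units (8.53 without CSC replicate 2). Among 11 entries for adrenergic, muscarinic and angiotensin signalling, 9 were called higher and 1 lower. Agtr1a, the angiotensin receptor, rose by 5.82 ± 0.56 log2 units and Adcy5, a cardiac adenylyl cyclase, by 2.97 ± 0.15 log2 units, while the cyclase Adcy6 was not called, at 89.1, 88.1 and 70.6 CPM in CSC and 88.8, 82.6 and 91.9 in nCM.

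Skeletal muscle genes did not follow the cardiac ones. Of 14 tested, 1 was called higher and 0 lower. Myod1, the master regulator of skeletal myogenesis, was at 1.08, 1.28 and 1.24 CPM in CSC and 1.56, 1.53 and 1.51 in nCM, and Tnnt3, the fast skeletal troponin T, at 2.63, 2.01 and 1.89 and 2.16, 2.3 and 2.13. Neither was called. The count of 1 became 2 with DESeq2 and 4 with the 6 libraries fitted alone.

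**Figure D3:**
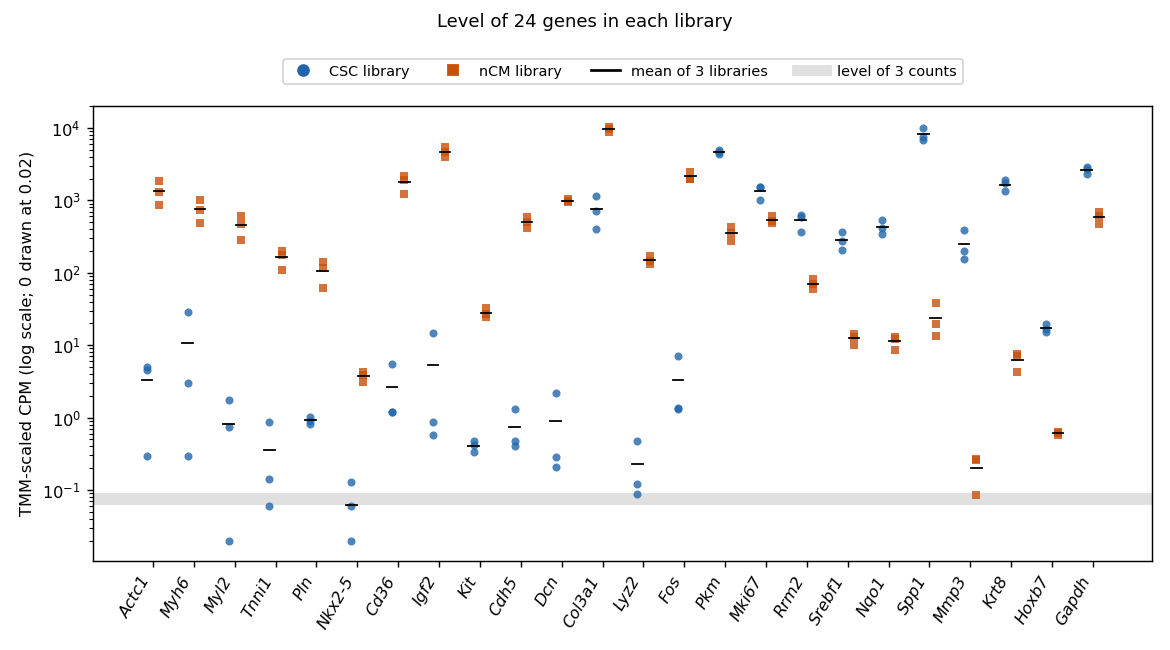
TMM-scaled CPM (vertical log axis) of 24 genes in each CSC library (circles) and nCM library (squares), with the mean of 3 libraries as a bar and the level of 3 counts as a grey band. Values of 0 are drawn at 0.02. The groups do not overlap for any of these genes, and the spread of the CSC circles is wide for Myh6, Actc1 and Igf2 and narrow for Kit and Pkm.

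Fuel use genes divided by pathway. Of 25 genes of fatty acid uptake and oxidation, 15 were called higher in nCM and 6 lower (median log2 fold change 0.611). Cd36, the fatty acid transporter of muscle and capillary, was at 1.2, 5.44 and 1.21 CPM in CSC and 2183, 1931 and 1213 in nCM. All nCM libraries were far above the highest CSC library, replicate 2, and the log2 fold change was 9.38 ± 0.63 (10.52 without that library). Lpl, the lipoprotein lipase of the vessel wall, rose by 6.36 ± 0.33 log2 units, Fabp3, the fatty acid carrier of heart muscle, by 5.67 ± 0.36 log2 units, Pdk4, the kinase that shuts off pyruvate oxidation, by 5.56 ± 0.18 log2 units, and Ppargc1a, the coactivator of mitochondrial genes, by 5.15 ± 0.27 log2 units. The 6 that fell had log2 fold changes down to -1.57. Among the 4 not called, Acadvl, very-long-chain acyl-CoA dehydrogenase, was at 80.4, 78.1 and 79.8 CPM in CSC and 91.6, 79.9 and 69.1 in nCM, and Etfdh, an electron carrier oxidoreductase, at 70, 66.8 and 62.6 and 79.9, 63.6 and 51. Neither was called.

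The citric acid cycle and the nuclear-encoded respiratory chain were close to even. Of 15 genes of the cycle, 2 were called higher and 4 lower (median -0.144), and of 25 entries for the chain, 4 higher and 3 lower (median 0.00345). These counts followed the scaling. With total count scaling 5 genes of the cycle and 8 of the chain were called higher, and with the authors' library factors 2 of the chain were called higher and 6 lower. Among the 4 of the chain called higher, Cox8b, a muscle form of cytochrome oxidase subunit 8, was at 0.191, 0.171 and 0.148 CPM in CSC and 22.4, 18.3 and 8.65 in nCM (log2 fold change 6.56 ± 0.39), and Cox6a2 rose by 3.25 ± 0.62 log2 units (4.45 without CSC replicate 1). The ATP synthase subunit Atp5b was not called, at 1429, 1455 and 1525 CPM in CSC and 1629, 1451 and 951 in nCM. In the cycle, Ogdh rose by 1.08 ± 0.18 log2 units, and Got2, the aspartate aminotransferase of mitochondria, fell, with a log2 fold change of -1.84 ± 0.17.

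The phosphocreatine and oxygen stores of muscle were on the nCM side. Of 6 such genes, 4 were called higher and 1 lower. Mb, myoglobin, was at 3.47, 1 and 0.177 CPM in CSC and 405, 396 and 276 in nCM. The lowest nCM library exceeded the highest CSC library many times over, with a log2 fold change of 7.83 ± 0.69 (9.15 without CSC replicate 1). Ckm, muscle creatine kinase, rose by 7.47 ± 0.35 log2 units, Ckb, its brain-type partner, by 6.06 ± 0.19 log2 units, and Gatm, the first enzyme of creatine synthesis, by 7.73 ± 0.20 log2 units.

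Glycolytic genes were mostly lower in nCM. Of 25 entries for glycolysis and lactate, 18 were called lower in nCM and 6 higher (median log2 fold change -1.76). Pkm, pyruvate kinase, was at 4438, 4996 and 4593 CPM in CSC, among its 8 most abundant genes, and at 428, 349 and 277 in nCM (log2 fold change -3.73 ± 0.19, adjusted p = 5.93e-10). The values of each group were close together and far from the other group. Gapdh, often used as a reference gene, was at 2305, 2858 and 2699 CPM in CSC and 699.6, 603 and 471 in nCM (log2 fold change -2.15 ± 0.17). Slc2a1, the glucose transporter of growing cells, was at 275, 350.2 and 283 and 36, 34.6 and 32.5 CPM (log2 fold change -3.14 ± 0.18). Among the 6 members that rose, Ldhb, the heart subunit of lactate dehydrogenase, was at 6.6, 0.725 and 15.5 CPM in CSC and 265, 245 and 186 in nCM (log2 fold change 4.95 ± 0.78, and 6.0 without CSC replicate 3), Slc2a4, the insulin-responsive glucose transporter, rose by 3.61 ± 0.25 log2 units, and Slc16a3, a lactate exporter, by 3.55 ± 0.23 log2 units. Eno3, muscle enolase, was at 12.3, 69.3 and 12.6 CPM in CSC, with replicate 2 far above the rest, and 17.8, 15.2 and 11.2 in nCM. It was not called, but leaving out CSC replicate 1 or 3 gave adjusted p-values of 0.045 and 0.0481.

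Genes of synthesis for growth were mostly lower in nCM. Of 16 genes of the pentose phosphate path and one-carbon synthesis, 14 were called lower and 1 higher (median -1.73). Psat1, an enzyme of serine synthesis, was at 170.4, 226 and 253 CPM in CSC and 12.5, 12.3 and 9.98 in nCM (log2 fold change -4.22 ± 0.21). The groups were well apart. Mthfd1l, of the mitochondrial folate path, fell (log2 fold change -3.52 ± 0.15) and Shmt2, which moves the serine carbon into it, did too (log2 fold change -2.49 ± 0.16). Aldh1l2, the mitochondrial formyl-folate dehydrogenase, was the member that rose (3.24 ± 0.22), and Tyms, thymidylate synthase, was not called, at 70.1, 87.9 and 52.8 CPM in CSC and 73.8, 72.6 and 63.2 in nCM.

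Of 17 genes of sterol and lipid synthesis, 16 were called lower and 0 higher (median -2.24). Srebf1, a master regulator of lipid synthesis, was at 278, 365 and 207 CPM in CSC and 9.96, 13 and 14.3 in nCM. Every CSC library was far above every nCM library (log2 fold change -4.51 ± 0.21, adjusted p = 2.98e-10). Scd, stearoyl-CoA desaturase, was at 1956, 2302 and 1809.8 CPM in CSC and 99.6, 132 and 174 in nCM (log2 fold change -3.90 ± 0.20). Fdps, which makes farnesyl pyrophosphate, fell (log2 fold change -2.95 ± 0.14). Idi1, isopentenyl-diphosphate isomerase, was not called in the fit of 12 libraries, at 25.9, 24.6 and 29.4 CPM in CSC and 23.9, 22.5 and 16.4 in nCM, but was with DESeq2 (adjusted p = 0.032).

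Genes of division were lower in nCM by moderate amounts. Of 22 genes of DNA replication, 20 were called lower and 0 higher (median -1.46), and of 23 of mitosis and cytokinesis, 22 lower and 0 higher (median -1.24). Mki67, the proliferation antigen, remained at 483, 618 and 522 CPM in nCM against 1012, 1518 and 1534 in CSC (log2 fold change -1.33 ± 0.21, adjusted p = 6.82e-05). Rrm2, the ribonucleotide reductase subunit made in S phase, was at 367, 635 and 592 CPM in CSC and 69, 80.8 and 59.6 in nCM (log2 fold change -2.93 ± 0.21). Cdc6, which loads the replicative helicase, fell (log2 fold change -2.20 ± 0.18) and Mcm5, a subunit of that helicase, did too (log2 fold change -1.94 ± 0.18). Pcna, the sliding clamp, was not called, at 313, 459 and 444 CPM in CSC and 359, 369 and 297 in nCM. In mitosis, Kif20a, a kinesin of cytokinesis, fell (log2 fold change -1.81 ± 0.22), Ccnb1, a mitotic cyclin, did too (log2 fold change -1.74 ± 0.18) and Aurka, a spindle kinase, did too (log2 fold change -1.66 ± 0.16). Cenpf, a kinetochore protein, was at 264, 303 and 156 CPM in CSC and 184, 245 and 189 in nCM and was not called, although leaving out CSC replicate 3 gave an adjusted p of 0.0261.

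The promoter windows of these genes held letters known from the cell cycle. The E2F site TTTCCCGC stood in 4 of 17 replication genes (23.5%) and in 1.73% of all windows. The CHR element TTTGAA stood in 13 of 19 mitotic genes (68.4%) and in 12.6% of all windows, and CCAAT, the NF-Y box, in 84.2% of mitotic genes, 70.6% of replication genes and 37.4% of all. Over all genes called lower in nCM the shares were close to those of all windows. They were 2.46% for the E2F site, 12.5% for the CHR element and 39.4% for CCAAT. Each motif was sought on both strands. The 250 bases upstream of Mcm5 (chr19:13488563-13488812, plus strand), Cdk1, the mitotic kinase (chr20:19265043-19265292, plus strand), and Ccnb2, its cyclin (chr8:79981659-79981908, minus strand), show these letters in capitals, from RefSeq build GRCr8. In Mcm5 the capitals mark the E2F site, and in the other two the CHR element and CCAAT, which reads ATTGG on the opposite strand.
Mcm5: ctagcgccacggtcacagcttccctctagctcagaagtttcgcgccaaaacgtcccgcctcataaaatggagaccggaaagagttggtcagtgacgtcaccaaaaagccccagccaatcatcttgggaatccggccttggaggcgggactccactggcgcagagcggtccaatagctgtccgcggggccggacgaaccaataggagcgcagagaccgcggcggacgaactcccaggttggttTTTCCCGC
Cdk1: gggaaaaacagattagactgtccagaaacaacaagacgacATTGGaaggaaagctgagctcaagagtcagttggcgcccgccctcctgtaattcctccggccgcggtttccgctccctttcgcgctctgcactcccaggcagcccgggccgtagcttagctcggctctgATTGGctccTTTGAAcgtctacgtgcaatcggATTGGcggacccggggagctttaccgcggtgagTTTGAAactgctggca
Ccnb2: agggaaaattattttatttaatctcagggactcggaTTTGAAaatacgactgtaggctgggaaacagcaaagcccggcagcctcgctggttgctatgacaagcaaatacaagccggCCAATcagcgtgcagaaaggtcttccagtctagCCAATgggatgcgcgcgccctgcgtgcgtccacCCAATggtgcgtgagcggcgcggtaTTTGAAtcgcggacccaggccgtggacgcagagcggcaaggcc
Cdk1 had a log2 fold change of -1.02 ± 0.19 and Ccnb2 of -0.93 ± 0.12, both called lower. A match describes the letters of this window and nothing about binding.

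The G1 regulators went both ways. Of 14 tested, 5 were called higher in nCM and 6 lower, beside 36.6% higher and 35.4% lower over all genes tested. The counts alone do not set this list apart. Ccnd1, cyclin D1, was at 867, 1404 and 1219 CPM in CSC and 299.5, 216 and 194 in nCM (log2 fold change -2.30 ± 0.22), and its partner kinase gene Cdk6 fell (log2 fold change -2.16 ± 0.14). Ccnd2, cyclin D2, went the other way, from 6.01, 0.171 and 4.79 CPM in CSC to 77.7, 68.8 and 73.8 in nCM. CSC replicate 2 was far below the other two, and the log2 fold change of 4.35 ± 0.73 (adjusted p = 0.000456) was 4.97 without CSC replicate 1 and 3.76 without replicate 2. Cdkn1a, a CDK inhibitor, was not called, at 79, 51.4 and 47.4 CPM in CSC and 71.6, 78 and 65.1 in nCM (adjusted p = 0.00756 without CSC replicate 1).

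Imprinted genes that govern fetal growth were nearly all higher in nCM. Of 14 tested entries, 13 were called higher and 0 lower (median 5.28). Igf2, the fetal insulin-like growth factor, was at 0.574, 14.7 and 0.858 CPM in CSC and 5505, 4695 and 3925 in nCM, where it was among the 8 most abundant genes. CSC replicate 2 stood above the other two, and the log2 fold change of 9.75 ± 1.25 (adjusted p = 5.68e-05) became 12.70 without it. Cdkn1c, a CDK inhibitor, was at 0.239, 0.981 and 0.592 CPM in CSC and 59.1, 42 and 32 in nCM (log2 fold change 6.17 ± 0.36, and 6.78 without CSC replicate 2). Dlk1, a membrane protein of fetal tissues, rose by 8.03 ± 0.37 log2 units, Peg3, a zinc finger protein, by 7.67 ± 0.23 log2 units, and Plagl1, a zinc finger regulator of this gene set, by 7.0 ± 0.28 log2 units. Grb10, an adaptor that restrains insulin signalling, was not called, at 592, 629.8 and 687 CPM in CSC and 689, 645 and 578 in nCM.

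The hairpin gene Mir675, which lies inside the imprinted H19 transcript, was among the 12 largest rises. It had 0, 30 and 0 counts in the CSC libraries and 14665, 9518 and 7622 in nCM. It was called higher (adjusted p = 4.06e-07), and without CSC replicate 2 the nCM mean was at least 11.6 log2 units above the floor of 3 counts per library. Reads on a hairpin gene in total RNA libraries come from the precursor or its host transcript and do not measure the mature microRNA. Of 47 microRNA genes tested, 25 were called higher and 4 lower (median log2 fold change 1.16). Those shown were chosen after their values were seen, as clusters or seeds with known roles, with the mature sequence from RefSeq (GRCr8) and the seed, bases 2 to 8, in capitals.
miR-675-5p: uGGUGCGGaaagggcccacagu
miR-675-3p: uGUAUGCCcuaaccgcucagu
miR-23a-3p: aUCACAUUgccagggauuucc
miR-27a-3p: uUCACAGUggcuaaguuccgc
miR-24-3p: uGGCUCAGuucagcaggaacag
miR-23b-3p: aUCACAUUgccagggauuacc
let-7d-5p: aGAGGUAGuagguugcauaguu
let-7i-5p: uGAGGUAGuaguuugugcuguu
miR-221-3p: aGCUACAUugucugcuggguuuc
The hairpins of miR-23a, miR-27a and miR-24-2 lie in 1 cluster, between chr19:40859481 and chr19:40859798 on the minus strand, and were called higher together. Mir23a had 6, 5 and 4 counts in CSC and 23, 20 and 23 in nCM (log2 fold change 2.06 ± 0.29, adjusted p = 2.18e-05). Mir27a rose by 2.12 ± 0.48 log2 units (2.73 without CSC replicate 1) and Mir24-2 by 2.10 ± 0.25 log2 units. Mir23b, whose mature arm shares the seed UCACAUU with miR-23a-3p, was not called, with 31, 13 and 17 counts in CSC and 21, 30 and 24 in nCM. Mirlet7d, of the let-7 family that restrains growth genes, rose by 2.07 ± 0.31 log2 units, while Mirlet7i, with the same seed GAGGUAG, had an adjusted p of 0.057. Mir221 was 1 of the 4 called lower, with 71, 76 and 40 counts in CSC and 4, 5 and 4 in nCM (log2 fold change -3.83 ± 0.32, adjusted p = 3.7e-07).

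Stem and progenitor genes did not move as a block. Kit, the receptor c-kit of the title, was at 0.335, 0.469 and 0.414 CPM in CSC and 24.2, 32.2 and 27 in nCM, higher in every nCM library (log2 fold change 6.08 ± 0.21, adjusted p = 1.5e-11). Kit is also a gene of mast cells, and the mast cell markers Cpa3 and Cma1 were at 0.12, 0.256 and 0.207 and 0.191, 0.235 and 0.237 CPM in CSC and at 3.38, 6.11 and 6.19 and 2.21, 5 and 6.67 in nCM. Their part in the Kit level was not tested. Of 14 progenitor and stromal surface genes, 9 were called higher in nCM and 2 lower, beside 36.6% higher and 35.4% lower over all genes tested. Cxcr4, the receptor of the homing chemokine SDF-1, rose by 7.88 ± 0.36 log2 units and Prom1, the surface protein CD133, by 7.43 ± 0.31 log2 units (8.11 without CSC replicate 2). Itgb1, the beta-1 integrin, was at 1324, 1465 and 1467 CPM in CSC and 1452, 1542 and 1417 in nCM, and Pdgfra, the receptor found on mesenchymal cells, at 178, 205 and 129 and 176, 206 and 250.2. Neither was called. Of 13 pluripotency and self-renewal genes, 7 were called higher and 4 lower. These counts alone do not set that list apart from the shares over all genes tested. Hmga2, the chromatin protein of undifferentiated cells, was at 63.7, 74 and 93.2 CPM in CSC and 2.72, 2.83 and 2.72 in nCM (log2 fold change -4.80 ± 0.25), Hmga1 fell (log2 fold change -3.19 ± 0.16), Mycn rose by 5.13 ± 0.28 log2 units and Klf4 by 1.5 ± 0.17 log2 units. Myc was at 81, 105 and 92 CPM in CSC and 91.7, 107 and 82.6 in nCM and was not called.

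HOX genes, which encode position along the body axis, were mostly lower in nCM, while keratins went both ways. Of 19 HOX entries, 14 were called lower in nCM and 1 higher (median -2.23). The 1 higher was not called under 6 alternatives. Hoxb7 was at 16.5, 15.4 and 19.7 CPM in CSC and 0.621, 0.635 and 0.567 in nCM, a log2 fold change of -4.82 ± 0.34. Each group was tight. Hoxd8 fell (log2 fold change -5.35 ± 0.32) and Hoxb6 did too (log2 fold change -5.21 ± 0.46). Among 13 keratins and other intermediate filaments, 6 were called each way (median 0.25), beside 36.6% higher and 35.4% lower over all genes tested. Krt8, a keratin of simple epithelia, was at 1336, 1721 and 1914 CPM in CSC and 7.51, 4.29 and 7.12 in nCM (log2 fold change -8.03 ± 0.29, adjusted p = 2.13e-11), and Krt7 fell (log2 fold change -7.07 ± 0.37). Krt19 went up, at 0.335, 0.192 and 0.384 CPM in CSC and 9.91, 5.98 and 8.11 in nCM, as did Nes, nestin, which rose by 5.93 ± 0.21 log2 units. Vim, vimentin, was abundant in both groups, at 6741, 7902 and 6390.2 CPM in CSC and 3865, 4354 and 3412 in nCM.

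Matrix genes differed in both directions. Of 25 fibroblast and matrix entries, 16 were called higher in nCM and 7 lower (median 2.59). Over all genes tested, 36.6% were called higher and 35.4% lower. Postn, the matricellular protein periostin of cardiac fibroblasts, was at 3.52, 11.6 and 2.6 CPM in CSC and 3688, 4585 and 4978 in nCM. The groups were far apart, with a log2 fold change of 9.54 ± 0.57 (10.49 without CSC replicate 2). Dcn rose by 10.01 ± 0.75 log2 units (11.93 without that library), and Eln, elastin, by 9.60 ± 0.80 log2 units (11.59 without it). Col3a1, the fibrillar collagen of soft tissue, was at 1168, 399 and 709.5 CPM in CSC and 8923, 10382 and 9699 in nCM (log2 fold change 3.67 ± 0.37). Col1a1, the main collagen I chain, was not called, at 2435, 2729 and 2136 CPM in CSC and 2565, 3326 and 4237 in nCM, though leaving out nCM replicate 1 gave an adjusted p of 0.0181. Tcf21, a transcription factor of cardiac fibroblasts, rose by 6.11 ± 0.25 log2 units, beside the summed fibroblast markers given above. Of 13 genes of the basement membrane, 11 were called higher and 1 lower. Nid1, nidogen-1, was at 0.574, 2.94 and 0.592 CPM in CSC and 955, 1103 and 1237 in nCM (log2 fold change 9.59 ± 0.59, and 10.87 without CSC replicate 2), whereas Nid2 was not called, at 87.2, 395 and 108 CPM in CSC and 262, 284 and 299 in nCM. Without CSC replicate 2, Nid2 was called at a log2 fold change of 1.53. Among 18 proteases and inhibitors, 10 were called higher and 6 lower, the latter near the share called lower over all genes tested. Mmp10, stromelysin-2, was at 121, 53.5 and 77 CPM in CSC and 0.343, 0.476 and 0.378 in nCM (log2 fold change -7.71 ± 0.41). Timp3, a matrix-bound inhibitor, rose by 8.70 ± 0.31 log2 units (9.51 without CSC replicate 2) and Plat, tissue plasminogen activator, by 7.59 ± 0.22 log2 units. Mmp14 was at 235, 259 and 235 CPM in CSC and 244, 289.7 and 301 in nCM and was not called.

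Vascular and blood genes were almost wholly on the nCM side. All 20 endothelial entries were called higher (median 7.69), with 12 of 13 smooth muscle and pericyte genes (median 5.57), 19 of 20 macrophage and leukocyte genes (median 5.8), 8 of 8 mast cell genes and 11 of 13 epicardial genes. Cdh5, the endothelial cadherin, was at 0.407, 1.32 and 0.473 CPM in CSC and 412, 594 and 504 in nCM (log2 fold change 9.37 ± 0.40, and 10.16 without CSC replicate 2). No nCM library was near a CSC library. Rgs5, a pericyte regulator of G proteins, rose by 9.03 ± 0.36 log2 units (9.82 without CSC replicate 2) and Myl9, a smooth muscle light chain, by 9.41 ± 0.50 log2 units (10.72 without it). Cspg4, the pericyte proteoglycan NG2, went against its list, at 222, 232 and 251 CPM in CSC and 55.9, 65.7 and 94 in nCM (log2 fold change -1.71 ± 0.16). Lyz2, lysozyme of myeloid cells, was at 0.12, 0.469 and 0.0887 CPM in CSC and 132, 144 and 168 in nCM (log2 fold change 9.24 ± 0.45, and 10.41 without CSC replicate 2). The class II genes RT1-Da and Cd74 of antigen-presenting cells rose by 5.96 ± 0.43 log2 units and 7.24 ± 0.36. Wt1, a factor of the epicardium, was at 0.55, 0.683 and 0.562 CPM in CSC and 52.7, 61.1 and 51.9 in nCM (log2 fold change 6.51 ± 0.17), while Msln, mesothelin, was not called, at 38.2, 46.5 and 19.3 CPM in CSC and 33.7, 15.2 and 30.8 in nCM. Among 12 erythroid genes 10 were called higher. Ahsp, the alpha-globin chaperone, was the exception among the markers, at 21.3, 69 and 74.3 CPM in CSC and 45.1, 64.6 and 44.9 in nCM, and was not called. Of 12 neural and glial genes, 8 were called higher and 2 lower (median 1.66). S100b fell, with a log2 fold change of -3.68 ± 0.44, and Ngfr rose by 3.50 ± 0.22 log2 units.

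Immediate early and stress genes were far higher in the isolated cells. Of 21 entries, 20 were called higher in nCM and 1 lower (median 4.09). Fos, the AP-1 subunit induced within minutes of stimulation, was at 1.36, 7.15 and 1.3 CPM in CSC and 2002, 2447 and 1987 in nCM. The nCM libraries were close together and all far above CSC, and the log2 fold change was 9.33 ± 0.69 (10.65 without CSC replicate 2). Atf3, a stress-induced factor, was at 1.72, 2.65 and 0.503 CPM in CSC and 789, 1019.7 and 716 in nCM (log2 fold change 8.97 ± 0.47, adjusted p = 5.06e-09), and Fosb rose by 8.36 ± 0.28 log2 units. Hspb1, a small heat shock protein, rose by 9.65 ± 0.33 log2 units (10.44 without CSC replicate 2). Egr2, a zinc finger gene of the same response, rose by 3.68 ± 0.35 log2 units. It carries a CArG box in the 250 bases before its start (chr20:21054442-21054691, minus strand, RefSeq build GRCr8, box in capitals), as did 2 of 14 windows of the list (14.3%).
Egr2: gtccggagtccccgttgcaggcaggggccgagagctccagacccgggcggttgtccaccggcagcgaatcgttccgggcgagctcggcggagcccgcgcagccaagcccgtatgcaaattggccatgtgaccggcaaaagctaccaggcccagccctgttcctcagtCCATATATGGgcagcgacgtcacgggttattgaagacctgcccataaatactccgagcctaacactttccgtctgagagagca
The nCM were isolated fresh and the CSC were cultured, so handling and cell type cannot be told apart in these genes, as in all others of the comparison. Inflammatory messengers were more often called higher than lower in nCM. Of 18 chemokines and cytokines, 11 were called higher and 3 lower, beside 36.6% higher and 35.4% lower over all genes tested. Il1b, interleukin-1 beta, was at 0.287, 0.363 and 0.148 CPM in CSC and 64.2, 67.6 and 47.7 in nCM (log2 fold change 7.75 ± 0.29), and Tnf rose by 8.07 ± 0.38 log2 units. Ccl2, the monocyte chemokine, was not called, at 341, 333 and 325 CPM in CSC and 221, 333 and 72.6 in nCM, where replicate 3 was lowest.

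Defence against oxidants and toxins was mostly on the CSC side. Of 22 genes, 13 were called lower in nCM and 5 higher (median -1.33). Aldh3a1, an aldehyde dehydrogenase, was at 647, 436 and 789.7 CPM in CSC and 0.878, 0.741 and 1.13 in nCM (log2 fold change -9.40 ± 0.34, adjusted p = 3.51e-11). Akr1b8, an aldo-keto reductase, was at 849, 499.7 and 1047 CPM in CSC and 2.25, 1.93 and 2.41 in nCM (log2 fold change -8.50 ± 0.30). Both separated the groups completely. Nqo1, a quinone reductase and classic target of Nrf2, was at 413, 343 and 530.4 CPM in CSC and 12.9, 12.2 and 8.68 in nCM (log2 fold change -5.25 ± 0.20), and Slc7a11, the cystine importer, fell (log2 fold change -5.31 ± 0.17). Akr1c14, a hydroxysteroid dehydrogenase, rose by 7.49 ± 0.30 log2 units. Gclm, a subunit of the glutathione synthesis enzyme, was not called, at 28.2, 36.8 and 42.2 CPM in CSC and 43.6, 47.9 and 40.8 in nCM.

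Protein synthesis and turnover genes were slightly lower in nCM. Of 26 ribosomal protein entries, 20 were called lower and 0 higher (median -0.578), and of 21 proteasome genes, 20 lower and 0 higher (median -0.809). Rps2, of the small subunit, was at 2806, 2508 and 2853 CPM in CSC and 1720.4, 1592 and 1104 in nCM (log2 fold change -0.89 ± 0.19), and Psmd2, of the proteasome cap, at 344, 442 and 481 and 165, 163 and 148 (log2 fold change -1.41 ± 0.13). Rpsa was not called, at 1936, 1575 and 1774 CPM in CSC and 1603, 1567 and 1229.6 in nCM. Eef1a1, the elongation factor, was among the 8 most abundant genes of both groups, at 12296, 8391 and 9180.4 CPM in CSC and 9612, 9685 and 8144 in nCM, and was not called.

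Developmental signalling genes were more often higher than lower in nCM. Of 15 Notch genes, 11 were called higher and 2 lower (median 3.38). Notch1, the receptor, was at 4.16, 4.61 and 2.51 CPM in CSC and 203, 223 and 294 in nCM (log2 fold change 5.98 ± 0.22). Dll4, its ligand in vessels, rose by 6.22 ± 0.22 log2 units and the target Hey1 by 7.18 ± 0.34 log2 units. The ligand Jag1 was not called, at 95.8, 136 and 157 CPM in CSC and 108, 109 and 133 in nCM. Of 25 Wnt genes, 17 were called higher and 6 lower (median 2.43). Secreted inhibitors were among the leading members. Sfrp1 rose by 7.47 ± 0.32 log2 units and Dkk3 by 6.92 ± 0.20 log2 units, while Axin2, a target of the pathway, was not called, at 8.71, 17.4 and 8.02 CPM in CSC and 11.1, 10.8 and 14.6 in nCM. Without CSC replicate 2 Axin2 was called, at a log2 fold change of 0.54. Of 28 TGF-beta and BMP genes, 15 were called higher and 4 lower (median 0.605), the 4 becoming 7 with RLE scaling, DESeq2 or the authors' factors and without nCM replicate 3. Bmp4, a ligand of heart and vessel development, was at 0.0479, 0.235 and 0.0887 CPM in CSC and 41.6, 36.9 and 44.7 in nCM (log2 fold change 8.27 ± 0.30, and 9.20 without CSC replicate 2). Bmp6 rose by 5.65 ± 0.19 log2 units, and the target Id1 was not called, at 57.7, 138 and 125 CPM in CSC and 133, 138 and 161 in nCM (adjusted p = 0.0462 without CSC replicate 2). Of 35 other growth factor and receptor genes, 16 were called higher and 13 lower, beside 36.6% and 35.4% over all genes tested. Igfbp3, which binds insulin-like growth factors, was at 0.431, 0.853 and 0.414 CPM in CSC and 174, 165 and 178 in nCM (log2 fold change 8.2 ± 0.23), and Lifr, the LIF receptor, rose by 8.41 ± 0.25 log2 units (9.09 without CSC replicate 2). Among 19 chromatin genes 8 were called each way, again not far from the shares over all genes tested. Uhrf1, which keeps DNA methylation through replication, fell (log2 fold change -2.15 ± 0.17), and Tet1, which removes it, rose by 5.73 ± 0.16 log2 units. Dnmt3a, a writer of new methylation, rose by 3.57 ± 0.16 log2 units.

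**Figure D4:**
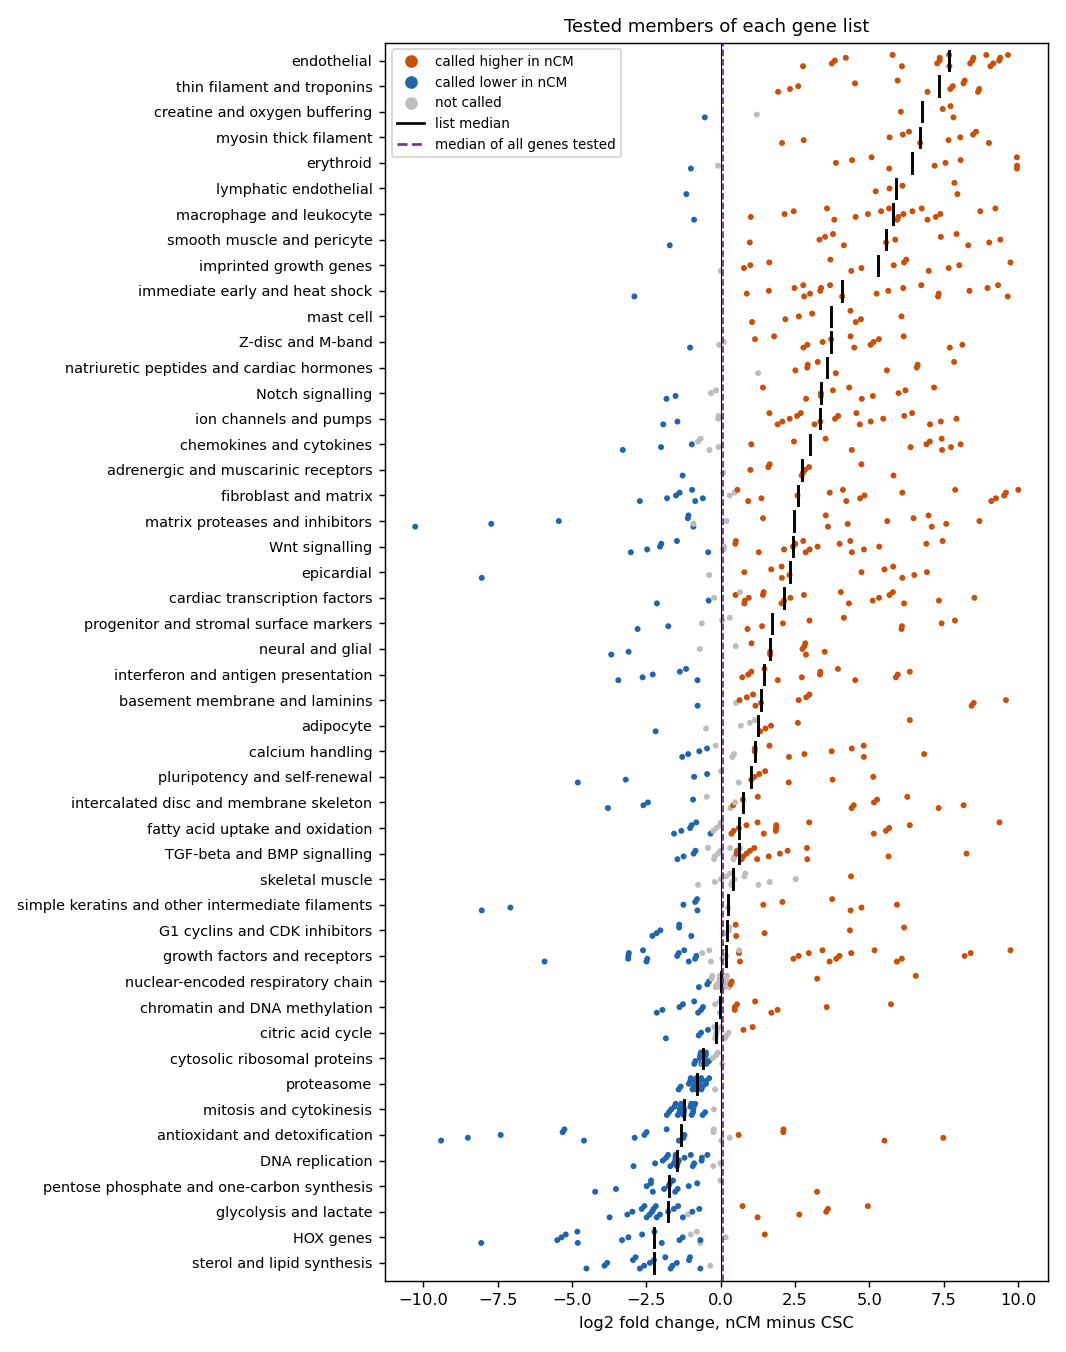
Log2 fold change, nCM minus CSC, of each tested member (points) of 48 gene lists plotted by list, with the list median as a black bar and the median of all 17242 genes tested, 0.089, as a dashed line. Lists are ordered by median, from sterol and lipid synthesis at -2.24 to endothelial genes at 7.69.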

How the data were processed

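RNA of the 6 libraries was depleted of ribosomal RNA and turned into TruSeq libraries with random primers, per the labels' protocols. For each rat gene, by Ensembl identifier, the authors deposited an estimated count that can be fractional. Their table also has log2 values, from which only the authors' factor for each library was taken. A second deposited table has estimated counts of further clones and, for cCSC1 and cCSC2, a signal of count size made in a way that no label states. DESeq is named in the submitters' processing notes. Overlapping genes and near-identical copies are uncertain, because aligner, counting program, strand setting and build were not given in the sources used here.

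Rounding to whole numbers came first. Of 26276 genes, 17242 passed filterByExpr (minimum count 10) over 12 libraries, and of the 9034 removed 6399 had no count after rounding. The single line without a gene name held a count of 0. All 12 libraries of nCM, CSC, beating colonies and adult cardiomyocytes were fitted together with edgeR 4.0.16 (robust quasi-likelihood, TMM, R 4.3.3), leaving 8 residual degrees of freedom, and the contrast nCM minus CSC was tested with Benjamini-Hochberg adjustment at 0.05. The script was tested on simulated data. Each SE was derived from this test, as the absolute log2 fold change divided by the square root of the F statistic. It can understate the uncertainty of genes with few counts in a group, such as Islr in CSC. Each library counted as 1 sample. The closest pair, nCM replicates 1 and 2, had a median chi-square per gene of 2.957 against 0.455 by chance. This is spread beyond counting error and does not show that the libraries are independent. Floors of 3 counts cover counting error only. Alternatives were RLE scaling, total count scaling, the authors' factors, DESeq2 1.42.0, limma-trend (limma 3.58.1), other filters, the 6 libraries alone, a replicate block and leaving out each library.

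The comparison and the gene lists were chosen with earlier results of these data known, and no list was tested as a set. Named are the 12 largest rises and falls among called genes with at least 20 CPM in the higher group and no overlap, up to 4 called and 2 uncalled genes per list, the 8 most abundant genes of each group, the cell type markers and the 10 largest changes with a mean of at least 100 CPM. A further 21 genes, such as Mki67, Gapdh, Nqo1, Tbx5, Tnni3 and the microRNA genes other than Mir675, were chosen after their values were seen. A few named genes are not reported here. Symbols came from the table (5794 identifiers have none), and 10899 of 16896 tested symbols matched a RefSeq promoter.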

Additional observations from a re-analysis of the deposited data

How the results depend on the processing

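Of 305 named genes tested, 238 were called, and none of these changed direction under the alternatives run. Of the 67 not called, 29 changed sign under at least 1 alternative, and 1 of them, Atp1b1, was then called (0.84 without CSC replicate 3). Calls were lost for Gsta2 with the 6 libraries alone (log2 fold change -7.38, adjusted p = 0.0501) and for MGC114427 there (-8.80, adjusted p = 0.0646) and with a replicate block (-6.61, adjusted p = 0.0576), and the cause was not tested. Calls over all genes ranged from 5638 to 7101 higher and 5291 to 6769 lower, and higher calls were 45.6% to 57.3% of all calls. Leaving out 1 library gave 5889 to 6175 higher and 5715 to 6006 lower. Among those 238, fold changes moved by more than 1.5 times for 47 without CSC replicate 2 (45 of them larger), 14 without CSC replicate 1, 4 without CSC replicate 3, 1 without nCM replicate 1, 28 with limma-trend and 7 with the block. Equal replicate numbers were not treated as pairs in the main fit, and the block gave 6190 higher and 5942 lower calls. Deviations of same-numbered libraries correlated at -0.0884, 0.0226 and -0.0622, and those of differently numbered ones at -0.0478 to 0.112. With 3 libraries in each group these values cannot decide whether samples were paired. Depth limits genes near 3 counts, such as Nkx2-5, Fxyd6 and Ucn in CSC.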

Other observations

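More genes had a wide range among the CSC cultures than among the nCM libraries, although the median log2 range over genes was 0.293 in CSC and 0.292 in nCM. Among genes with a mean of at least 10 CPM in the group, 67 of 8716 (0.769%) had a range of 4-fold or more over the 3 CSC libraries, and 6 of 9265 (0.0648%) over the 3 nCM libraries, with 0.5 CPM added. Cyp4b1, a cytochrome P450, was at 87.4, 10.7 and 1.03 CPM in the CSC libraries, and Lcn2, the iron-carrier protein lipocalin-2, at 134, 5.61 and 2.34. C3, a complement component, was at 133, 2.65 and 4.35 CPM, and Stmn2, a neuronal tubulin-binding protein, at 9.62, 111 and 1.83. Ptgs2, the prostaglandin synthase COX-2, was at 59.4, 3.12 and 11.9 CPM in CSC and 97.2, 109 and 69.4 in nCM and was not called (adjusted p = 0.0584). Among genes with a symbol and at least 20 CPM on average, the widest nCM range was that of Fmod, the proteoglycan fibromodulin, at 12.7, 22.7 and 60.4 CPM. These genes were picked for their range, so the ranges are a description.

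The 3 further CSC clones lie in a separate table and were set beside the groups as CPM of their column totals, with no test. Genes chosen after their values were seen were left out of this count. Of 159 genes named by the rule and called higher in nCM, 135 were matched there, and 125 had all 3 clones below all 3 nCM libraries. All 60 genes named by the rule and called lower were matched, and 54 had all 3 clones above all nCM libraries. The share over all genes was not counted, and these counts do not give the size of a difference. Many of the genes were named for their difference between CSC and the same nCM libraries, so the counts are no independent test. The nCM values were scaled by TMM and the clone values were not. Clone cCSC2 had Dcn at 421.5 and Nid1 at 757 CPM, against at most 1.11 and 4.29 in cCSC1 and cCSC3. In cCSC2, Cacna1c at 52.6 and Slc16a3 at 74.2 CPM lay above all nCM libraries. Ms4a2, a mast cell receptor chain, had all 3 clones above nCM. Ccnd2 was at 42.9 to 73.7 CPM in the clones, against 0.171 to 6.01 CPM in CSC and 68.8 to 77.7 in nCM.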
